A study of Mus musculus with 8 samples.

Results

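The pyruvate dehydrogenase complex, its kinases and its phosphatases were followed through 10 genes of the count table, taken by name from its 32390 rows: the kinases *Pdk1*, *Pdk2*, *Pdk3* and *Pdk4*, the phosphatase genes *Pdp1*, *Pdp2* and *Pdpr*, and the subunit genes *Pdha1*, *Pdhb* and *Dlat*. Where a name stood on several rows, the row with most counts was used. All 10 had enough counts to enter the test. The RNA came from gastrocnemius muscle of male mice aged 21 months on a C57BL/6 background and standard chow, 4 per genotype, and the libraries carry 1 batch label. Control mice were Nox4 fl/fl. Knockout (KO) mice were MckCre:Nox4 fl/fl, in which the creatine kinase promoter drives Cre mainly in skeletal muscle and less in heart. Both genotypes carry the floxed *Nox4* alleles and only KO mice carry Cre, so that the presence of Cre and the deletion cannot be told apart. The time of day and the feeding state at dissection are not given in the sources used here. The comparison asks how loss of NOX4, an enzyme that makes hydrogen peroxide, from muscle of aged mice is reflected in the transcripts of this switch.

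The pyruvate dehydrogenase complex sits in the mitochondrial matrix and turns pyruvate from glycolysis into acetyl-CoA, which feeds the tricarboxylic acid cycle. Pyruvate dehydrogenase kinases phosphorylate its first enzyme and switch it off, and pyruvate dehydrogenase phosphatases remove the phosphate and switch it on again. Skeletal muscle is known for raising *Pdk4* during fasting, when fatty acids replace glucose as fuel, and for expressing *Pdp1*, whose product is stimulated by calcium during contraction.

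The 8 libraries held 16350548 to 19804661 counts, with medians of 19152318 in control and 18177348 in KO muscle. Levels are given as CPM (counts scaled to the same library size) after TMM scaling, errors are SDs over 4 mice, and fold changes are KO over control. *Nox4*, the deleted gene, stood at 5.09, 2.47, 1.87 and 3.64 CPM in control mice 1 to 4 and at 1.74, 2.17, 2.21 and 2.17 CPM in KO mice 1 to 4. Its groups overlapped and its log2 fold change of -0.65 (SE 0.29) did not pass the test (adjusted p = 0.207, edgeR quasi-likelihood test with Benjamini-Hochberg adjustment), so that it gives only a weak check of the labels, and whether its reads fall in the deleted part was not tested. With 1 replicate left out, the *Nox4* value ran from -0.82 (without control replicate 3) to -0.36 (without control replicate 1). Summed skeletal muscle markers (*Acta1*, *Ckm*, *Myh4*, *Actn3*, *Tnnt3* and *Mylpf*) ranged from 120546 to 153051 CPM in control and from 130694 to 155924 CPM in KO libraries, with 0 of 6 called. Control replicate 4 stood apart in heart transcripts, with 564 counts of *Myh6* and 36 of *Nppa*, where the other 7 libraries had 2 to 16 and 0 to 2. Without it *Pdk4* had a log2 fold change of -1.62 (adjusted p = 0.0688, not called) and *Pdp1* one of 1.29 (adjusted p = 9.99e-04, called), and the remaining 8 genes, from -0.23 to 0.99, were not called. The second principal component, with 19.0% of the variance, separated odd from even replicates in both genotypes, more widely in KO mice. It stood at 21.0 and 4.21 in control replicates 1 and 3 and at -5.92 and -3.55 in control replicates 2 and 4. In KO replicates 1 and 3 it stood at 18.5 and 17.0, and in KO replicates 2 and 4 at -26.3 and -25.0. Values for odd and even replicates are given below for *Pdk4*, *Pdk1*, *Pdpr* and *Pdha1*. Differences are differences in RNA from whole muscle, where fewer cells of a type and less RNA per cell cannot be told apart.

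A gene was called when its adjusted p was under 0.05 and its absolute log2 fold change over 0.5, the thresholds of the study. Of the 10 genes, 1 was called lower (*Pdk4*), 1 was called higher (*Pdp1*) and 8 were not called. Across the 12725 rows tested, 3.48% were called lower, 2.68% higher and 6.16% in either direction. *Pdk4*, the kinase with the highest level per length in control muscle, therefore fell, *Pdp1*, the more abundant of both catalytic phosphatases, rose, and the genes of the complex itself did not pass the test. Genotypes did not overlap for 3 of the 10 genes (*Pdk3*, *Pdk4* and *Pdp1*; 30%), beside 16.2% of all rows tested. The 10 log2 fold changes were split evenly between 5 negative and 5 positive values.

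**Figure D1:**
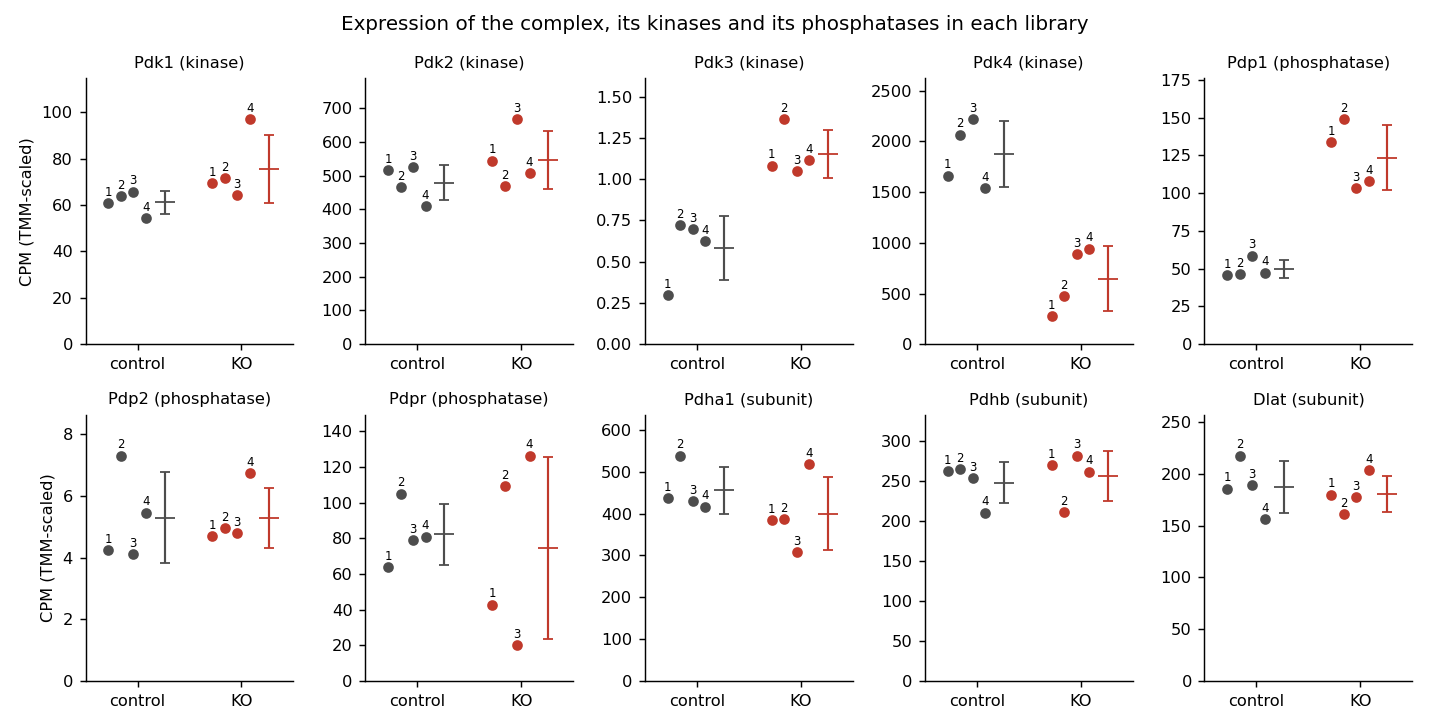
Expression of the 10 genes in CPM (vertical axes, linear and starting at 0) in each library, with control mice in grey and KO mice in red, replicate numbers above the points and bars for mean ± SD over 4 mice. The *Pdk4* values of KO mice (280 to 942) all lie below those of control mice (1540 to 2221), those of *Pdp1* (103 to 149) all lie above (45.9 to 58.6), and *Pdpr* is split between KO replicates 1 and 3 and KO replicates 2 and 4.

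Because the kinase genes differed in what happened to them, the stretches before their start sites are shown for *Pdk4*, which fell, and for *Pdk2*, which was next in level and was not called. Both are RefSeq sequences of build GRCm38.p6 on the minus strand, written 5′ to 3′, from chr6:5496310-5496528 for *Pdk4* (219 bases, 250 to 32 bases before its start) and from chr11:95041372-95041621 for *Pdk2* (250 bases before its start). Capitals mark matches to the searched motifs ACGTG or GCGTG, the core of sites bound by hypoxia-inducible factors, and CCAAT, which reads ATTGG where it lies on the other strand.
Pdk4: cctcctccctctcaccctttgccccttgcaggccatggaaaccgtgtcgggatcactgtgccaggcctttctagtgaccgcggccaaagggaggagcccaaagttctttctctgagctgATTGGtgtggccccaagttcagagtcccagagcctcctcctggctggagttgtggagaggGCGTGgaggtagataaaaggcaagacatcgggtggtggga
Pdk2: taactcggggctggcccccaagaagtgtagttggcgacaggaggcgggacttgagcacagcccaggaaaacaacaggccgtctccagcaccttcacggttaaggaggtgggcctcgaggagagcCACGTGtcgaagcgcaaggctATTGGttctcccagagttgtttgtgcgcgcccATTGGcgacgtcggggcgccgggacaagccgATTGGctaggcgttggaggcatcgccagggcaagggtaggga
Motifs were searched on both strands in the 250 bases before the start. *Pdk4* held GCGTG 71 bases and CCAAT (other strand) 131 bases before its start. *Pdk2* held ACGTG on both strands in one overlapping match of 6 letters about 125 bases before its start, and CCAAT on the other strand at 105, 73 and 42 bases. Another start site listed for *Pdk2*, not printed here, held no match to any motif searched. The core ACGTG or GCGTG occurred in 8 of the 9 members that RefSeq's promoter table lists (*Pdp1* has no entry) and in 38.6% of all 32851 promoters, and CCAAT in 5 of 9 and in 33.8%. A member was counted when any of its start sites matched, and *Pdk1* and *Pdk2* had 2 each. The shares of promoters count each start site by itself, so that the units differ. GTAAACA, the letters bound by FOXO factors (3.17% of promoters), and AGGTCA, the core of nuclear receptor sites (14.0%), occurred in none of the 9, and AGAACA, the core of glucocorticoid receptor sites (16.1%), only at another start site of *Pdk1*. These counts describe the letters in this window and say nothing on binding or on sites elsewhere.

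*Pdk4* encodes the kinase that is induced when muscle turns to fatty acids. It measured 1663, 2068, 2221 and 1540 CPM in control mice 1 to 4 and 280, 472, 886 and 942 CPM in KO mice 1 to 4. Every KO value was below every control value, and the KO values were further apart (3.36-fold between lowest and highest, coefficient of variation 49.8%) than the control values (17.3%). The mean fell from 1873 ± 324 to 645 ± 321 CPM, 2.90-fold, with a log2 fold change of -1.54 (SE 0.35, 95% interval -2.32 to -0.76, adjusted p = 0.0288, edgeR). An exact two-sided permutation test gave p = 0.0286, the smallest value that 4 mice against 4 allow. This single transcript took 0.156 to 0.210% of all counts in control and 0.0280 to 0.0924% in KO libraries, so that counting error was small (4660 counts in the lowest library). The direction was the same under all 22 alternatives, and the call was kept in 13 and lost in 9. It was lost without control replicate 2 (log2 fold change -1.49, adjusted p = 0.0585), control replicate 3 (-1.43, 0.0663), control replicate 4 (-1.62, 0.0688) or KO replicate 2 (-1.41, 0.0973), and with a term for odd and even replicates (-1.54, 0.0738). In odd-numbered replicates alone the log2 fold change was -1.74 and in even-numbered ones -1.34, neither past the test with 2 mice a group (adjusted p = 0.390 and 0.189).

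*Pdk2*, the kinase found in most tissues, measured 516, 466, 525 and 410 CPM in control mice and 545, 468, 668 and 507 CPM in KO mice. The groups overlapped, with means of 479 ± 52.8 and 547 ± 86.5 CPM. The log2 fold change of 0.19 had a 95% interval from -0.09 to 0.47 (adjusted p = 0.413, edgeR), so that a change of the size seen for *Pdk4* lay outside it. *Pdk1*, the kinase best known as a target of hypoxia-inducible factor, measured 60.8, 63.9, 65.8 and 54.2 CPM in control mice and 69.5, 71.6, 64.2 and 97.1 CPM in KO mice. KO replicate 3 lay within the control range and KO replicate 4 stood highest. Its means were 61.2 ± 5.07 and 75.6 ± 14.7 CPM and its log2 fold change was 0.31 (95% interval 0.02 to 0.59, adjusted p = 0.187, edgeR). That value was 0.07 in odd-numbered replicates alone, 0.52 in even-numbered ones and 0.18 without KO replicate 4, called in none of these. *Pdk3*, a kinase that is scarce in muscle, measured 0.30, 0.72, 0.70 and 0.62 CPM in control mice and 1.08, 1.37, 1.05 and 1.11 CPM in KO mice. These values rest on 5 to 14 counts a library in control and 18 to 27 counts in KO mice, and the groups did not overlap. Its log2 fold change of 0.96 (SE 0.33, 95% interval 0.24 to 1.68) was not called (adjusted p = 0.102, edgeR).

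Levels of different genes are compared per length, as CPM per kilobase of merged exons. In control muscle *Pdk4* stood at 533 ± 92.2 CPM per kb, above *Pdk2* at 152 ± 16.7, *Pdk1* at 7.86 ± 0.651 and *Pdk3* at 0.23 ± 0.076, with no overlap between any of these neighbours. In KO muscle *Pdk4* stood at 184 ± 91.5 CPM per kb (79.8 to 268) and *Pdk2* at 173 ± 27.4 (148 to 211), so that the first 2 kinases could no longer be ordered beyond their spread. When the longest transcript was used as length, *Pdk2* came first in KO muscle. *Pdk4* made up 73.5, 79.1, 78.4 and 76.2% of the summed kinase level in control mice 1 to 4 and 30.5, 46.0, 53.5 and 60.8% in KO mice 1 to 4. With the longest transcript as length these shares averaged 70.3% in control and 39.8% in KO mice, against 76.8% and 47.7% with merged exons. The share of *Pdk2* went from 22.0 ± 2.46 to 49.4 ± 12.5%, and that of *Pdk3* stayed under 1% in every library. The summed kinase level was 693 ± 103 CPM per kb in control and 367 ± 106 in KO muscle, while without *Pdk4* it was 160 ± 17.2 and 183 ± 26.4. The drop in the sum was thus that of *Pdk4*, and the sum of the other kinases overlapped between genotypes.

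**Figure D2:**
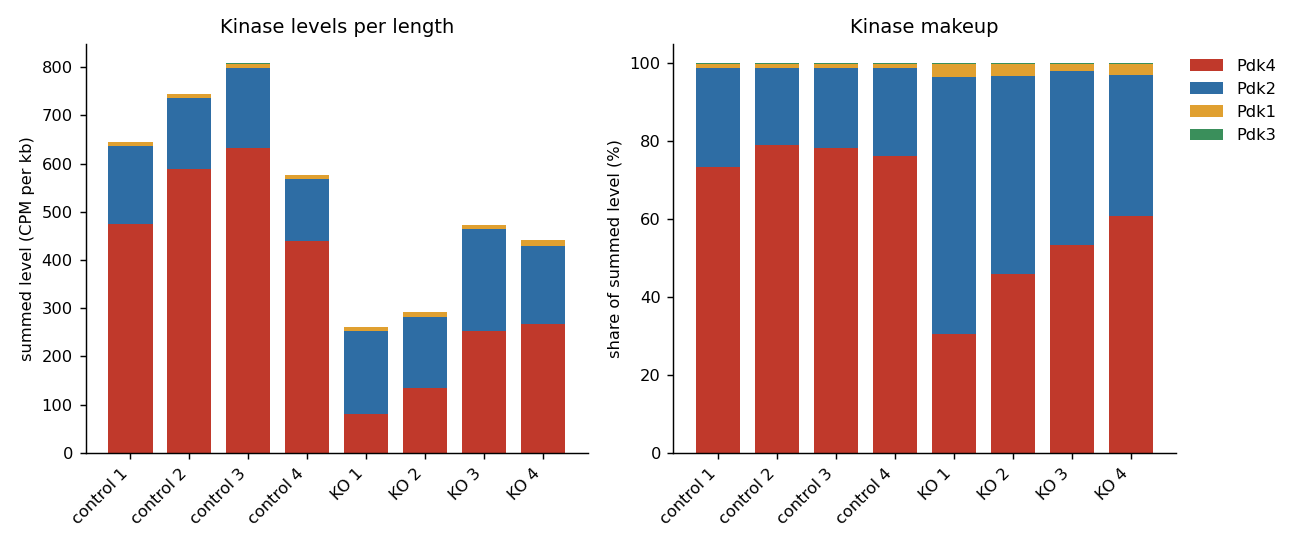
Kinase levels per length in each of the 8 libraries: the left panel stacks the levels in CPM per kb of merged exons and the right panel gives each kinase as a percent of their sum. *Pdk4* (red) takes 73.5 to 79.1% in control and 30.5 to 60.8% in KO libraries, the *Pdk2* level (blue) lies between 130 and 211 CPM per kb in all, and *Pdk3* is too low to be seen.

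*Pdp1* encodes the catalytic phosphatase that is stimulated by calcium. It measured 45.9, 46.6, 58.6 and 47.5 CPM in control mice 1 to 4 and 134, 149, 103 and 108 CPM in KO mice 1 to 4. The groups were far apart, and the lowest KO value was well above the highest control value. The mean rose from 49.6 ± 6.03 to 124 ± 21.6 CPM, 2.49-fold, with a log2 fold change of 1.32 (SE 0.14, 95% interval 1.02 to 1.61, adjusted p = 2.26e-04, edgeR) and an exact permutation p of 0.0286. By p-value it was number 21 of the 12725 rows tested, where *Pdk4* was number 655. The call held in all 22 alternatives, with log2 fold changes from 1.17 to 1.46. KO replicates 1 and 2, the libraries with the least *Pdk4*, had the most *Pdp1*.

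**Figure D3:**
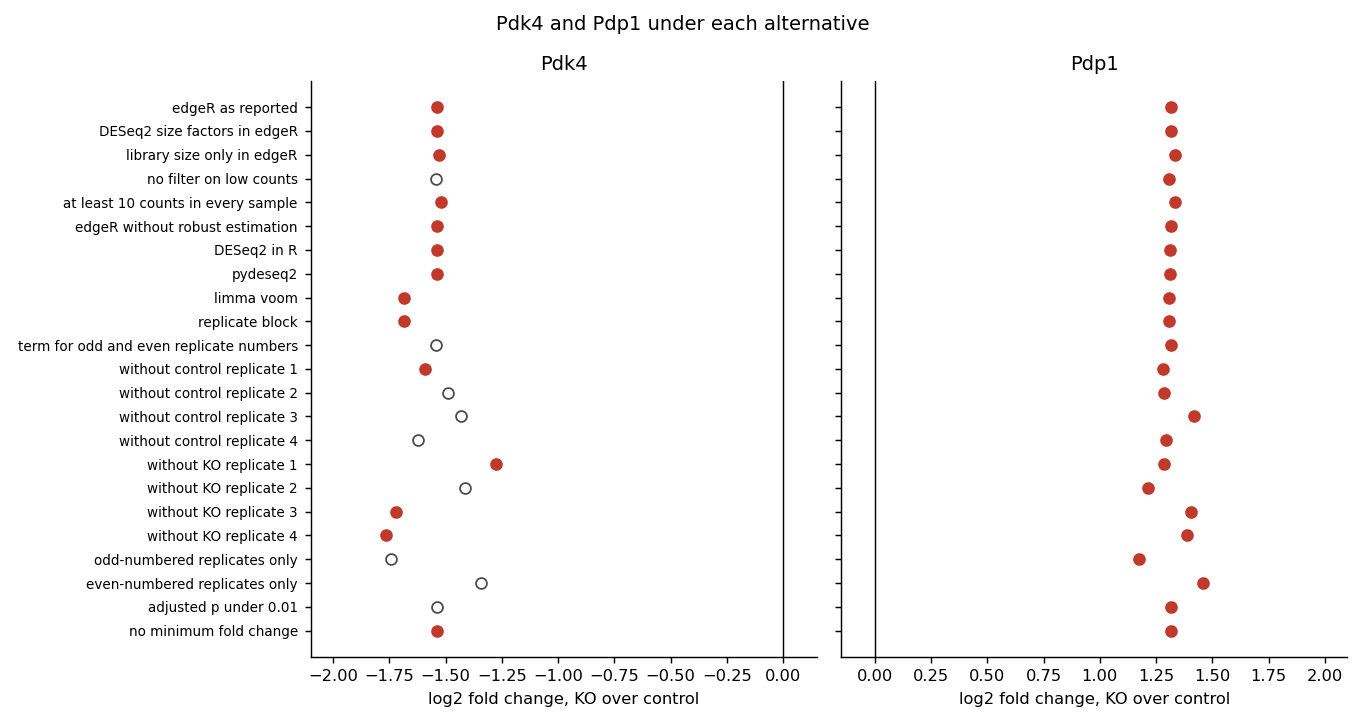
Log2 fold change (KO over control, horizontal axes) of *Pdk4* and *Pdp1* as reported and under each alternative setting, filled red where the gene was called and open where it was not. *Pdk4* stays between -1.76 and -1.28 and is called in 13 of 22 alternatives, and *Pdp1* stays between 1.17 and 1.46 and is called in all 22.

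*Pdp2*, the catalytic phosphatase that does not need calcium, was scarce, with 4.26, 7.31, 4.12 and 5.46 CPM in control mice and 4.69, 4.96, 4.78 and 6.74 CPM in KO mice. The ranges overlapped fully and the means were nearly equal. The 95% interval of its log2 fold change ran from -0.46 to 0.46 (adjusted p = 0.998, edgeR), and the sign of so small a value turned with several settings. *Pdpr* encodes the regulatory subunit of the phosphatase. It measured 63.7, 105, 79.1 and 80.9 CPM in control mice 1 to 4 and 42.8, 109, 20.1 and 126 CPM in KO mice 1 to 4. KO replicates 1 and 3 lay below every control library and KO replicates 2 and 4 above every one, which gave a coefficient of variation of 68.6% in KO against 20.8% in control muscle. The log2 fold change of -0.14 (SE 0.53, 95% interval -1.37 to 1.09, adjusted p = 0.912, edgeR) was accordingly imprecise. It was -1.19 in odd-numbered replicates alone and 0.35 in even-numbered ones. It was 0.06 and 0.18 without KO replicates 1 and 3, and -0.38 and -0.51 without KO replicates 2 and 4. The lower of KO replicates 2 and 4 was 2.55-fold above the higher of KO replicates 1 and 3, and 73 of 12725 rows (0.574%) had such a gap of at least 2-fold in this direction, 24 of them a gap at least as large as that of *Pdpr*. What sets these libraries apart was not tested. In the GENCODE annotation of GRCm38, 3.36% of the exon bases of *Pdpr* also lie in exons of 9430091E24Rik on the other strand, and the libraries were unstranded.

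Per length, the catalytic phosphatases together stood at 11.9 ± 1.23 CPM per kb in control and 28.4 ± 4.73 in KO muscle, and *Pdp1* made up 92.1 ± 2.46% and 96.6 ± 0.986% of them. The ratio of the summed kinase level to the catalytic phosphatase level was 59.0, 64.1, 58.8 and 50.1 in control mice 1 to 4 and 8.57, 8.60, 19.8 and 17.6 in KO mice 1 to 4. The ratio of *Pdk4* to *Pdp1* was 48.4 ± 6.41 in control and 7.24 ± 4.49 in KO muscle. Both ratios are built from the genes that were called and therefore describe the same differences on another scale. They are ratios of transcripts, and neither protein nor phosphorylation of the complex was measured in these libraries.

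*Pdha1* and *Pdhb* encode the subunits of the first enzyme, and *Dlat* the acetyltransferase core. *Pdha1*, whose product carries the serines that the kinases phosphorylate, measured 436, 538, 430 and 416 CPM in control mice and 385, 387, 308 and 519 CPM in KO mice. KO replicates 1 to 3 lay below every control library and KO replicate 4 within the control range. Its means were 455 ± 55.9 and 400 ± 87.5 CPM, and its log2 fold change of -0.19 had a 95% interval from -0.51 to 0.14 (adjusted p = 0.495, edgeR). That value was -0.33 in odd-numbered replicates alone and -0.07 in even-numbered ones, called in neither. Exons of Map3k15, on the other strand, cover 16.1% of the exon bases of *Pdha1*, but Map3k15 was at 0.800 ± 0.073 CPM in control and 0.553 ± 0.156 CPM in KO muscle. *Pdhb* measured 261, 264, 254 and 210 CPM in control mice and 269, 210, 281 and 261 CPM in KO mice (log2 fold change 0.05, 95% interval -0.21 to 0.30, adjusted p = 0.856). *Dlat* measured 186, 217, 189 and 156 CPM in control mice and 180, 161, 177 and 203 CPM in KO mice (log2 fold change -0.05, 95% interval -0.31 to 0.20, adjusted p = 0.831). The groups overlapped for all 3 subunits. The intervals of *Pdhb* and *Dlat* lie within 0.5 on either side of 0, the fold change needed for a call, and the interval of *Pdha1* passes that limit slightly on the lower side.

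The remaining subunits of the complex were not called either. *Dld*, the dihydrolipoamide dehydrogenase that several complexes share, was at 270 ± 22.2 and 256 ± 37.4 CPM (95% interval of the log2 fold change -0.33 to 0.18, adjusted p = 0.744), and *Pdhx*, which tethers it to the core, at 75.9 ± 7.60 and 78.9 ± 9.43 CPM (-0.19 to 0.30, adjusted p = 0.819). *Pdha2*, the testis form of the alpha subunit, had 0 counts in every library. Per length, the order in control muscle was *Pdha1* (122 ± 14.98 CPM per kb), *Dld*, *Pdhb* (64.0 ± 6.56), *Dlat* (38.3 ± 5.10) and *Pdhx*, and the order in KO muscle was the same. The ranges of *Dld* and *Pdhb* overlapped in both genotypes, so that these neighbours were not ordered beyond their spread. *Pdp1*, at 11.02 ± 1.34 CPM per kb in control muscle, had a lower mean than *Pdpr* (16.3 ± 3.40), and in KO muscle it stood at 27.4 ± 4.80 and *Pdpr* at 14.8 ± 10.2, with ranges that overlapped in both genotypes.

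**Figure D4:**
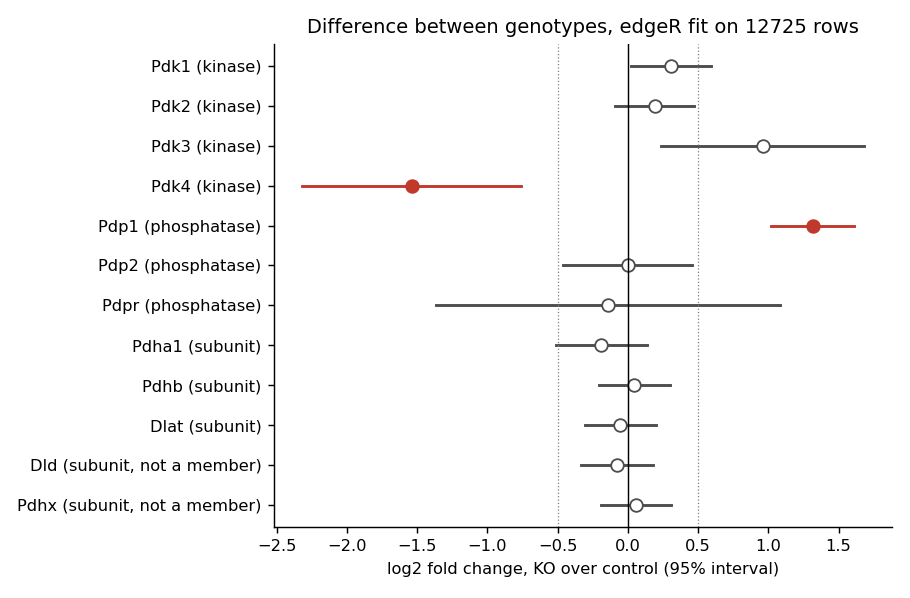
Log2 fold change (KO over control, horizontal axis) with its 95% interval for the 10 genes and the other subunits *Dld* and *Pdhx*, from the edgeR fit, with filled red points for called genes and dotted lines at the fold change required. *Pdk4* at -1.54 and *Pdp1* at 1.32 stand apart, the subunits sit near 0 with narrow intervals, and *Pdpr* has the widest interval (-1.37 to 1.09).

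Around the complex, most genes that supply it or take up its product were not called. Of 17 genes of pyruvate and lactate handling, 1 was called lower and none higher, beside 3.48% and 2.68% of all rows tested. In this list 8 values were negative and 9 positive. Their median log2 fold change was 0.08, beside 0.01 over all rows tested. The gene called was *Slc16a1*, a transporter of lactate and pyruvate across the cell membrane, which went from 58.1 ± 5.65 to 39.4 ± 6.74 CPM (log2 fold change -0.56, adjusted p = 0.0224, edgeR). That call was lost without control replicate 1, control replicate 2, KO replicate 1 or KO replicate 2 (log2 fold changes -0.56, -0.49, -0.50 and -0.48). The mitochondrial pyruvate carrier genes *Mpc1* and *Mpc2* had log2 fold changes of -0.11 and 0.08, and lactate dehydrogenase *Ldha* 0.30 (adjusted p = 0.604, 0.807 and 0.311). None of 14 genes that make, attach or remove lipoate, the cofactor of *Dlat*, was called, none of 10 genes of the sister complexes for oxoglutarate and branched-chain oxoacids, and none of 15 genes tested of the tricarboxylic acid cycle. Their median log2 fold changes were 0.07, -0.06 and 0.02. *Bckdk*, the kinase that switches off the branched-chain complex in the way the Pdk family acts on this one, had a log2 fold change of 0.02 (adjusted p = 0.958). *Slc19a2*, a plasma membrane carrier of thiamine, the source of the cofactor of *Pdha1*, fell from 7.90 ± 1.02 to 4.54 ± 0.610 CPM (log2 fold change -0.80, adjusted p = 0.0139, edgeR).

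Among genes reported to act on *Pdk4*, or to respond to fasting as it does, most of those called were lower in KO muscle. Of 17 transcription factors and coregulators reported to act on *Pdk4*, 4 were called lower and none higher, beside 3.48% and 2.68% of all rows, and 11 values were negative. The median log2 fold change was -0.53. *Lpin1*, a phosphatidate phosphatase that also acts as a coactivator of PPARα, fell from 718 ± 169 to 265 ± 55.6 CPM (log2 fold change -1.44), the fatty acid receptor *Ppard* from 32.8 ± 3.14 to 21.9 ± 2.95 CPM (-0.58) and *Stat5b* from 374 ± 52.1 to 257 ± 28.8 CPM (-0.54), with adjusted p of 9.61e-04, 0.0153 and 0.0215. The other gene called was *Cebpb* (69.0 to 31.4 CPM, log2 fold change -1.13, adjusted p = 0.0305), a factor of the acute phase and of glucocorticoid responses. The coactivator *Ppargc1a* (log2 fold change -1.39, adjusted p = 0.0855), *Foxo1* (-0.64, 0.539), *Foxo3* (-0.58, 0.0624) and *Ppara* (-0.99, 0.377) did not pass the test. The other 6 values were positive and none was called. They included *Ppargc1b* (0.70, 0.117), *Nr2f2* (0.29, 0.148) and *Rxra* (0.26, 0.122), whose genotypes did not overlap. The count called lower was 2 without control replicate 3 or control replicate 4. *Stat5b* lost its call without control replicate 3 (-0.50), control replicate 4 (-0.47), KO replicate 3 (-0.47) or KO replicate 4 (-0.50).

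Of 22 PPAR, FOXO and fasting-responsive genes tested, which did not include *Pdk4* itself, 8 were called lower and 1 higher. Over all rows tested, 3.48% were called lower and 2.68% higher. The median of the list was -0.56 on the log2 scale. The acyl-CoA thioesterase *Acot2* fell from 74.9 ± 12.4 to 15.1 ± 2.84 CPM (log2 fold change -2.31), its cytosolic relative *Acot1* from 7.33 ± 2.39 to 0.714 ± 0.206 CPM (-3.34) and the lipid droplet protein *Plin5* from 29.4 ± 6.26 to 8.84 ± 2.53 CPM (-1.74). The one that rose was *Txnip*, an inhibitor of glucose uptake (log2 fold change 0.90, adjusted p = 0.00114). *Ucp3* (-0.69, adjusted p = 0.205), *Angptl4* (-0.57, 0.217) and *Cpt1b* (-0.13, 0.869) were not called. The 13 HIF1 target genes tested had a median of -0.24. Of these, 3 were called lower and none higher, beside 3.48% and 2.68% of all rows tested. They were the prolyl hydroxylase *Egln3* (87.9 ± 17.6 to 29.1 ± 7.04 CPM, -1.60), the mitophagy receptor *Bnip3* (323 ± 81.2 to 177 ± 14.4 CPM, -0.87) and the mTORC1 inhibitor *Ddit4* (113 ± 53.6 to 28.0 ± 8.40 CPM, -2.01, a call lost without control replicate 4 at -1.84, KO replicate 2 at -2.08, KO replicate 3 at -1.88 or KO replicate 4 at -1.89, and without the low-count filter at -2.02). The lists were drawn up with earlier results of these libraries known, so that their counts are descriptions and not independent evidence of a direction.

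**Figure D5:**
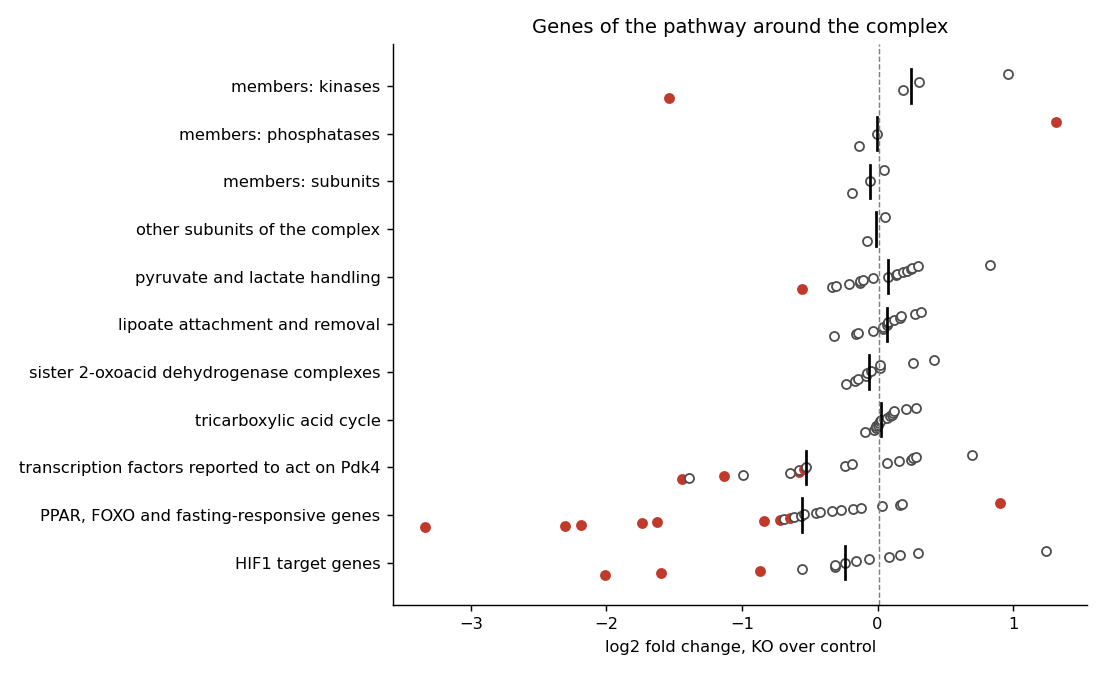
Log2 fold change (KO over control, horizontal axis) of tested genes in the lists shown around the complex, 1 point per gene, filled red where called, with a black bar at each list's median. The lists of transcription factors acting on *Pdk4* (median -0.53) and of PPAR, FOXO and fasting-responsive genes (median -0.56) lie to the left, and the tricarboxylic acid cycle (median 0.02) is gathered around 0.

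Markers of other cells were read beside these results. Of the blood markers, 2 of 3 tested were called higher in KO muscle, beside 2.68% of all rows tested. These were *Hba-a1* and *Hbb-bs* (log2 fold changes 1.24 and 1.00). The summed level of the blood markers did not overlap, with 47.6 to 52.7 CPM in control and 72.3 to 159 CPM in KO libraries. Slow fiber markers were positive for 7 of 8 genes (median 0.64 on the log2 scale) with 0 called, and their sums overlapped (353 to 738 and 463 to 1261 CPM). None of the adipocyte (7 tested), endothelial (6), immune cell (5) or fibroblast and tendon markers (6) was called, and their sums overlapped between genotypes, with 163 to 299 and 160 to 210 CPM, 200 to 249 and 223 to 242 CPM, 7.85 to 21.2 and 8.74 to 13.1 CPM, and 339 to 577 and 305 to 508 CPM in control and KO libraries. The cardiac markers *Myh6*, *Nppa* and *Myl7* reached too few libraries to be tested. They summed to 31.2 CPM in control replicate 4, to 0.300 to 0.566 CPM in the other control libraries and to 0.101 to 0.938 CPM in KO libraries, with *Myl7* at 0 in all. The part of blood, slow fibers or heart transcripts in the values of *Pdk4* and *Pdp1* was not tested.

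Over the 8 libraries, the gene whose log2 CPM was most like that of *Pdk4* among 8746 rows with a mean of at least 5 CPM was *Ube2j1* (Pearson's r = 0.988), followed by *Prdm15* (0.972) and *Letm2* (0.963). With the genotype means subtracted, so that only differences between mice of one genotype remained, they were *Klf13* (0.973), *Ube2j1* (0.961) and *Ip6k3* (0.944). For *Pdp1* they were *Prkag3* (0.996), *Ogfrl1* (0.989) and *Gm19299* (0.986), and with the genotype means subtracted *Smarce1* (0.964), *Prkag3* (0.947) and *Plekho1* (0.939). *Prkag3*, which encodes the gamma subunit of AMP-activated protein kinase found in fast muscle fibers, was itself called higher (log2 fold change 1.33, adjusted p = 1.08e-04, edgeR). These correlations are the highest of many over 8 libraries that share genotype and scaling, and are given as a description only.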

How the data were processed

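Bulk RNA-seq was done on gastrocnemius muscle of 8 mice (4 control, 4 KO). Per the study's methods, RNA was isolated on RNeasy columns, poly(A) RNA was made into unstranded paired-end libraries, and reads went through the nf-core pipeline for RNA-seq in Laxy. The submitters' processing notes name STAR and GRCm39, while the annotation and the counting settings are not given in the sources used here. The authors deposited raw read counts per gene without normalization. All columns matched a sample (0 unmatched). Libraries of the same genotype were taken as separate mice, so that p-values measure the spread between mice.

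The whole table was tested in R 4.3.3 with edgeR 4.0.16: TMM scaling, filterByExpr, a robust quasi-likelihood fit with genotype as the only term, and Benjamini-Hochberg adjustment over 12725 rows. The study's thresholds were used with edgeR in place of its DESeq2 in Python. Intervals are 95% intervals of the edgeR coefficient. CPM of single genes were compared by exact two-sided permutation tests. Per-length levels used merged exons of the GENCODE annotation of GRCm38, another build than that of the counts, and no member shared a 100-base stretch with another gene's transcript. Correlations used log2 CPM with a prior count of 2. The fit was tested on simulated data.

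Alternatives were DESeq2's size factors, library size only, no filter, a minimum of 10 counts per sample, fitting without robust estimation, DESeq2 1.42.0, pydeseq2 0.5.4, voom in limma 3.58.1, a replicate block, an odd/even term, other thresholds and each replicate left out. Odd or even replicates alone and longest-transcript lengths were added after seeing the data. The members and lists were chosen with earlier results of these data known. Named genes are all members, *Nox4*, the 3 called genes of smallest p per list, and the 3 rows most like each called member. *Mpc1*, *Mpc2*, *Ldha*, *Bckdk*, *Txnip*, *Cebpb*, *Ppargc1a*, *Ppargc1b*, *Nr2f2*, *Rxra*, *Foxo1*, *Foxo3*, *Ppara*, *Ucp3*, *Angptl4* and *Cpt1b* were named in addition, after their values were seen. *Fh1*, *Car9*, *Hba-a2* and *Hbb-bt* were not analysed here, and *Slc19a3*, *Fgf21* and *Adrb3* had too few counts to test. Some genes of the lists are not reported here.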

Additional observations from a re-analysis of the deposited data

Results flagged for a closer look

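In groups of 4, a library was singled out when its gap to the nearest other library exceeded, as a share of the group's range, Dixon's 95% critical value for 4 samples, which chance gives in about 1 group in 20. It was met by 3 of 46 groups. Control replicate 3 stood above the other control libraries for *Pdp1* (58.6 CPM, ratio 0.877), on the side of the KO libraries but below all of them. KO replicate 4 stood above the other KO libraries for *Pdp2* (6.74 CPM, ratio 0.872), and control replicate 2 above the other control libraries for *Pdha1* (538 CPM, ratio 0.838).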

How the results depend on the processing

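Over 22 alternatives *Pdp1* kept its call. *Pdk4* kept its direction and lost its call without the low-count filter (log2 fold change -1.54, adjusted p = 0.122), with the odd/even term (-1.54), in odd replicates only (-1.74), in even replicates only (-1.34), at an adjusted p under 0.01 (-1.54) and without 4 single replicates (range over all 8 left out -1.76 to -1.28), which left 0 members called lower (0 to 1). DESeq2 in R and pydeseq2 kept it (adjusted p = 0.00136 and 0.0035). Rows called lower were 443, with 52 in even replicates only, 156 at an adjusted p under 0.01 and 295 to 425 with a replicate left out. Rows called higher were 341, with 166 in odd replicates only, 38 in even replicates only, 96 at an adjusted p under 0.01 and 204 to 317 with a replicate left out. With 2 mice a group fewer samples entered the fit, and for other settings the cause was not tested. Signs turned for *Pdp2* (log2 fold change -0.0018; 0.00445 with library size only, 0.0173 at 10 counts or more, 0.0122 with voom, 0.0181 with the block, 0.0177 with the odd/even term, 0.17 in odd replicates only, -0.12 to 0.20 with a replicate left out), *Pdpr* (0.35 in even replicates only, -0.51 to 0.18 left out; 0.06 and 0.18 without KO replicates 1 and 3), *Pdhb* (-0.0247 to 0.13 left out), *Dlat* (-0.13 to 0.0254 left out), *Pdhx* (-0.00195 in odd replicates only, -0.0153 to 0.13 left out) and *Smarce1* (-0.0253 in odd replicates only, -0.0222 to 0.0913 left out). The *Pdk4* share of the kinase level in control muscle was 70.3% with longest-transcript lengths and 76.0 to 77.9% with a replicate left out. At 10 counts or more in every sample *Pdk3* was not tested, because control replicate 1 had 5 counts.

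Replicate numbers are shared by the genotypes, and deviations of same-numbered libraries correlated at 0.22, 0.15, 0.04 and 0.04. Other pairs of a control and a KO library that were both odd or both even correlated at 0.06 to 0.19. Pairs of an odd and an even library correlated at -0.21 to 0.008. Same-numbered libraries were thus not set apart from other odd or even ones, and were not taken as a pairing. With the replicate block, rows called lower were 543 and higher 390, *Pdk4* was at -1.68 (adjusted p = 0.0388) and *Pdp1* at 1.31, and *Ddit4* was not called (-1.92, adjusted p = 0.143).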
